A study of Mus musculus with 8 samples.

Results

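The genes described here form the antioxidant defence of the heart: the redox-responsive transcription factor NRF2 (gene Nfe2l2) and its inhibitor Keap1, NRF2 target enzymes, the glutathione and thioredoxin systems, peroxiredoxins, superoxide dismutases, catalase, ferritin, metallothioneins, and Cyba, a membrane subunit of NADPH oxidases. They were chosen by gene symbol, with no measured value in the rule, though earlier results of these data were known. All 38 were found among the 56748 genes of the deposited table. A total of 37 passed the filter on low counts and were tested with all 16002 genes that passed it, and Slc7a11 did not pass.

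RNA was sequenced from whole mouse hearts 56 days after transverse aortic constriction (TAC), a surgical narrowing of the aorta that puts the left ventricle under pressure overload. The CS7KO group (4 libraries, numbered 1 to 4) came from mice whose cardiomyocytes were to lose Smad7, an inhibitor of TGF-beta receptor signalling, through a Cre transgene. Its promoter, that of the alpha myosin heavy chain gene, is active in cardiomyocytes, so other cells of the heart were to keep Smad7. The CRE group (4 libraries, numbered 1, 2, 3 and 5) came from mice labelled with the same Cre as control. Both groups therefore carried Cre and underwent the constriction, and hearts without constriction were not analysed here. The mice, of the strain written C56BL in the labels, were 3 to 4 months old, and in each group 2 hearts were labelled male and 2 female. The series design calls the samples independent, and the p-values measure the spread between these libraries.

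NRF2 is held in the cytoplasm by KEAP1, which directs it to degradation, and oxidants or electrophiles that modify KEAP1 let NRF2 reach the nucleus. There it pairs with small MAF proteins on antioxidant response elements and raises transcription of enzymes that make glutathione, reduce thioredoxin and quinones, and break down haem. Metallothioneins bind zinc and copper and are switched on by the metal-sensing factor MTF1, and in the heart both systems are known to respond to oxidative and haemodynamic stress.

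None of these genes passed an adjusted p of 0.05 in CS7KO against CRE hearts (0 of 37 by edgeR's quasi-likelihood test, against 6 of all 16002 genes, 0.0375%). Of all genes, 0.0187% were called higher and 0.0187% lower in CS7KO. DESeq2 also called 0 of the 37, where it called 503 of all 16002 genes (3.14%), and limma-voom called 0 of the 37 and 5 of all genes (0.0312%). At an unadjusted p under 0.05 edgeR counted 7 of the 37 (18.9%), against 12.6% of all genes tested. The higher 3 in CS7KO (8.11%, against 6.12% of all genes) were the thioredoxin reductase Txnrd1, the catalase gene Cat and the quinone reductase Nqo1. The lower 4 (10.8%, against 6.52%) were the glutathione transferase Gsta1, Cyba, the glutathione peroxidase Gpx1 and the ferritin light chain Ftl1. The CS7KO and CRE libraries did not overlap for 2 of the 37 (5.41%, against 10.3% of all genes), Cat and Keap1. Both were higher in CS7KO, as were 6.24% of all genes, and 0 members were lower without overlap, against 4.11%. Read against these shares of all genes, the counts single out no direction for the set. The fitted log2 difference, CS7KO over CRE, was above 0 for 19 members and below 0 for 18, with a median of 0.04 beside 0.03 for all genes tested.

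**Figure D1:**
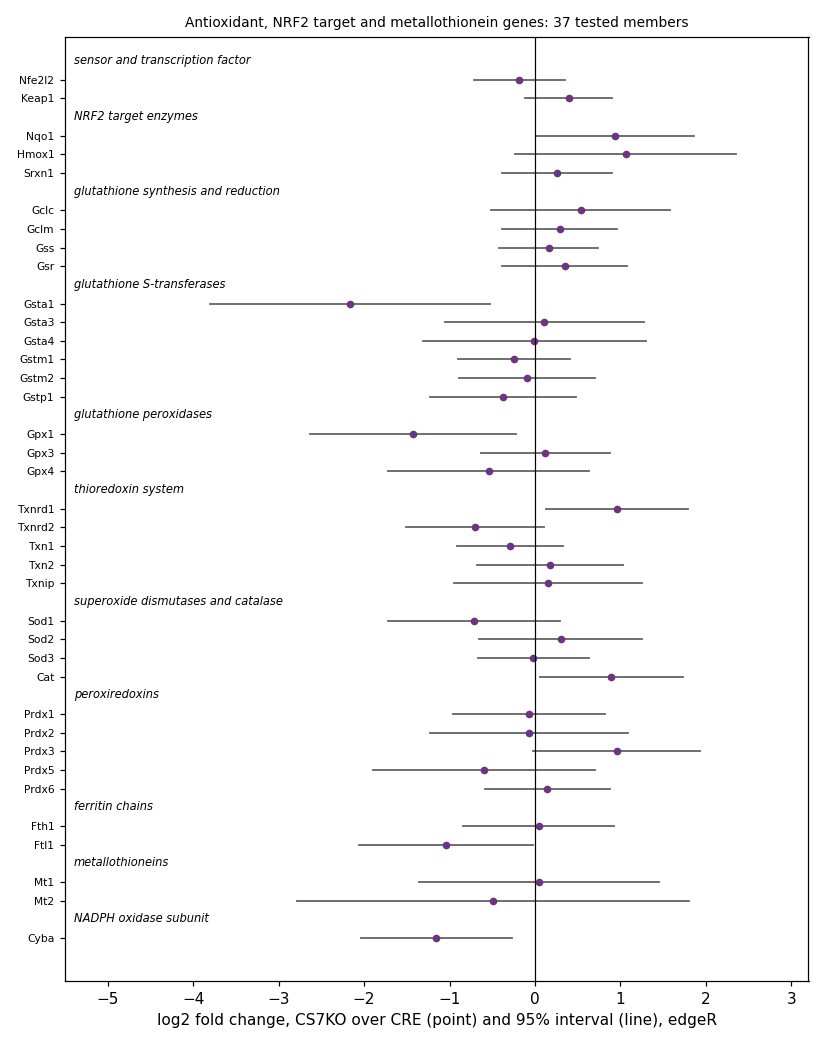
Fitted log2 difference (CS7KO over CRE, horizontal axis) of the 37 tested antioxidant genes, ordered by role, with the 95% interval as a line. The values run from -2.16 (Gsta1) to 1.06 (Hmox1), 19 lie above 0 and 18 below, and no gene passed an adjusted p of 0.05.

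The libraries differed in ways that touch every value below. Total counts ran from 16679724 to 40181492 in CS7KO and from 16476420 to 29751644 in CRE. Mitochondrially encoded genes took 20.2% to 24.9% of the counts in the CS7KO libraries, against 15.04%, 20.3%, 41.1% and 69.8% in CRE 1, 2, 3 and 5. CRE 1 held 537 genes with 1 to 9 counts, while the other 7 libraries held between 5848 and 19697. Cardiomyocyte markers summed to between 52960 and 63853 CPM (counts scaled to each library's size) in CS7KO and between 21715 and 66312 CPM in CRE, and none of those 12 markers was at 0 throughout. Smad7, the targeted gene, had 19.8, 13.3, 27.8 and 12.3 CPM in CS7KO and 17.6, 25.5, 25.2 and 45.4 CPM in CRE (log2 difference -0.59, SE 0.34, edgeR adjusted p = 0.509), so its level overlapped between the groups and did not check the genotype labels in whole-heart RNA. Xist lay between 0 and 1.03 CPM, and 4 Y-linked genes summed to between 160 and 253 CPM, in all 8 libraries, including the 4 labelled female. These sex-linked genes thus did not follow the labelled sex. The label stayed in the model as a term, which sets libraries 1 and 2 of each group against the others, CRE 3 and CRE 5 included. An alternative left it out.

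The 38 genes together took 0.747% to 0.801% of the counts in the CS7KO libraries, against 1.34%, 0.729%, 0.624% and 0.232% in CRE 1, 2, 3 and 5. The CRE libraries thus spread over a wide range, and the CS7KO libraries lay close to each other between CRE 1 and CRE 2. CRE 1 was the highest of the 8 libraries for 23 of the 37 genes (62.2%, against 22.8% of all genes tested), and CRE 5 was the lowest for 21 (56.8%, against 24% of all genes). The median deposited gene length was 2139 bases for the 23 and 2971.5 bases for the other 14. Among all genes tested it was 2657 bases for those highest in CRE 1 and 4677 bases for the rest. The median ratio of the highest to the lowest library was 1.48 within CS7KO (1.64 for all genes) and 3.67 within CRE (2.70 for all genes). Because whole hearts were sequenced, a smaller number of cells of a type and less RNA per cell cannot be told apart in any of these values.

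**Figure D2:**
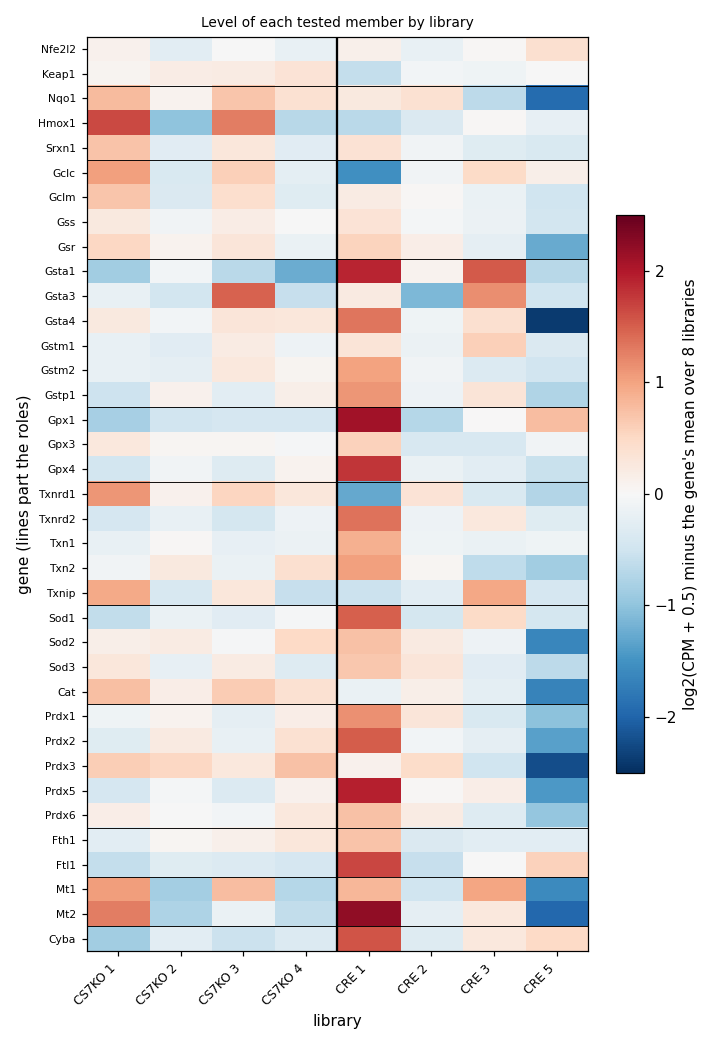
Level of each of the 37 tested genes (rows, grouped by role) in each library (columns, CS7KO 1 to 4 and then CRE 1, 2, 3 and 5), as log2 CPM minus the gene's mean over the 8 libraries. CRE 1 is the highest library for 23 genes and CRE 5 the lowest for 21, and CS7KO 1 and 3 stand above CS7KO 2 and 4 for 15.

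Levels were compared between genes per kilobase of deposited gene length. On this scale, averaged over the 8 libraries, Gpx4, a selenoprotein that reduces lipid hydroperoxides in membranes, was first with 468 CPM per kilobase. Fth1, the iron-oxidising heavy chain of ferritin, followed with 452, and Gpx3, a secreted glutathione peroxidase, with 437. Mt1 stood at 250, Ftl1 at 163 and Txnip, which binds and inhibits thioredoxin, at 161. The order is not firm. It depends on the deposited length, which for Mt1 and Gpx1 covers the whole stretch from gene start to gene end. That length need not be the length of the mRNA. In CPM alone Fth1 averaged 1583 in CS7KO and 1555 in CRE, above Gpx4 with 607 and 1008, so the first place of Gpx4 rests on the length used. For the first 3, the CS7KO means were 352, 456 and 453 CPM per kilobase against CRE means of 585, 448 and 421. Ftl1 averaged 105 CPM per kilobase in CS7KO and 221 in CRE, and Txnip 168 in CS7KO and 155 in CRE, so their places differ between the groups. At the low end were the glutathione synthetase gene Gss with 2.62, and Slc7a11 with 0.0272 CPM per kilobase. Slc7a11 encodes the transport subunit of the cystine/glutamate exchanger that feeds glutathione synthesis, and it had 7, 7, 48 and 6 counts in CS7KO 1 to 4 against 0, 2, 28 and 0 counts in CRE 1, 2, 3 and 5.

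**Figure D3:**
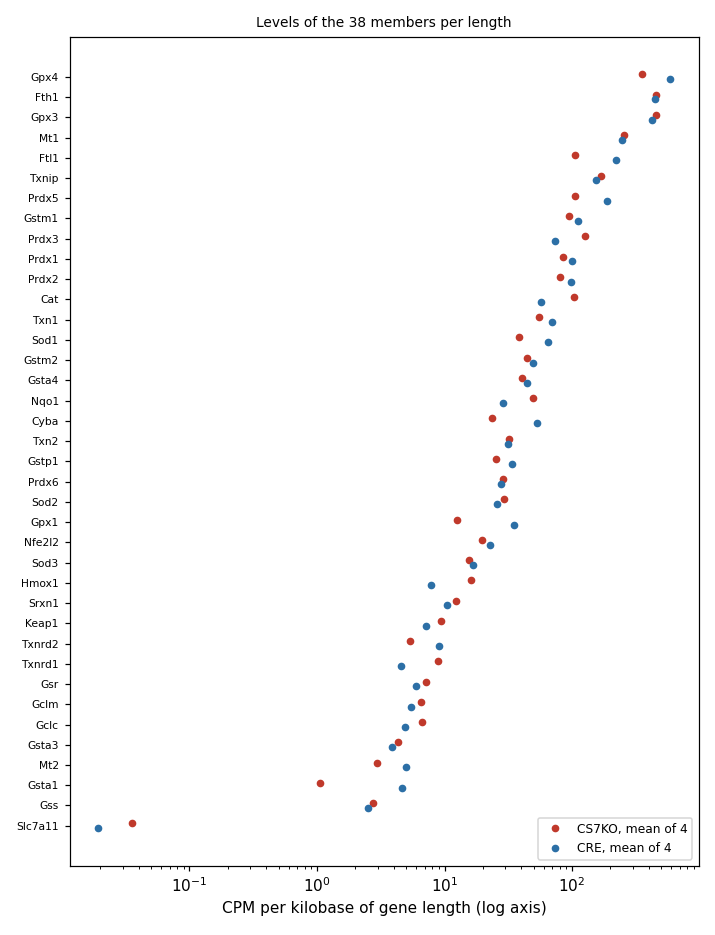
Mean CPM per kilobase of deposited gene length (log axis) for the 38 genes in CS7KO and in CRE, ordered by the mean over all 8 libraries. Gpx4, Fth1 and Gpx3 lead with 468, 452 and 437 CPM per kilobase, and Slc7a11 closes the order at 0.0272.

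Nfe2l2 itself was close to even between the groups. It had 85.3, 65.6, 78.8 and 69.6 CPM in CS7KO 1 to 4, against 86.3, 69.4, 81.5 and 105 CPM in CRE 1, 2, 3 and 5 (log2 difference -0.19, SE 0.24, 95% interval -0.72 to 0.35, edgeR adjusted p = 0.806). The ranges overlapped, with CRE 5 the highest library. Keap1, the adaptor that brings NRF2 to its ubiquitin ligase, had 39.7, 43.5, 44.1 and 48.2 CPM in CS7KO, against 24.9, 36.3, 35.1 and 37.9 CPM in CRE (log2 difference 0.39, SE 0.23, interval -0.11 to 0.90, adjusted p = 0.512). Every CS7KO library lay above every CRE library, which 6.24% of all genes tested also showed, and the step between CS7KO 1 and CRE 5 was small. Keap1 shares exon sequence with the long non-coding RNA Gm16754, whose counts were equal to 3.07% of those of Keap1.

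Of 13 further regulators of NRF2, 8 were higher and 5 lower in CS7KO, with a median log2 difference of 0.44, and 0 passed the test. Mafk, a small MAF partner of NRF2, had the smallest p of these, with 238, 123, 210 and 112 CPM in CS7KO against 40.2, 104, 51.0 and 42.0 CPM in CRE. All 4 CS7KO libraries lay above the CRE libraries, though CS7KO 4 and CRE 2 were close (log2 difference 1.56, SE 0.39, adjusted p = 0.280).

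The enzymes most used to read out NRF2 were higher on average in CS7KO, none of them past the threshold. Nqo1, which reduces quinones, had 92.2, 56.3, 86.1 and 69.4 CPM in CS7KO against 63.0, 69.6, 33.6 and 13.5 CPM in CRE (log2 difference 0.94, SE 0.42, interval 0.01 to 1.87, adjusted p = 0.393). The groups overlapped through CRE 1 and CRE 2, and CRE 5 was far below the rest. Without CRE 5 the Nqo1 difference was 0.59, and without both CRE 3 and CRE 5 it was 0.12. Hmox1, the inducible haem oxygenase, had 53.5, 8.07, 41.3 and 10.1 CPM in CS7KO against 10.2, 12.9, 17.1 and 14.5 CPM in CRE (log2 difference 1.06, SE 0.58, interval -0.23 to 2.35, adjusted p = 0.478). CS7KO 1 and 3 stood above all CRE libraries and CS7KO 2 and 4 below them, and the difference was 0.25 without CS7KO 1 and 0.68 without CS7KO 3. Srxn1, the sulfiredoxin that restores over-oxidised peroxiredoxins, ranged from 25.2 to 50.9 CPM in CS7KO and from 23.7 to 39.7 CPM in CRE (log2 difference 0.26, adjusted p = 0.767), and its difference was 0.06 without CS7KO 1 and 0.11 without CS7KO 3.

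Glutathione synthesis and reduction gave 4 tested genes, all with a log2 difference above 0 and none past the threshold. Gsr, glutathione reductase and the most abundant of them per length, had 24.7, 18.2, 21.3 and 15.3 CPM in CS7KO against 25.3, 19.4, 14.5 and 6.90 CPM in CRE (log2 difference 0.35, SE 0.33, adjusted p = 0.711). The groups overlapped, with the highest and the lowest library both in CRE. Gclc, the catalytic subunit of the rate-limiting glutamate-cysteine ligase, ranged from 14.9 to 40.03 CPM in CS7KO and from 6.41 to 27.3 CPM in CRE (log2 difference 0.53, adjusted p = 0.685), and its difference was 0.06 without CS7KO 1 and 0.23 without CRE 1. Its modifier subunit Gclm ranged from 28.3 to 59.0 CPM in CS7KO and from 25.8 to 41.9 CPM in CRE (0.29, adjusted p = 0.745), with a difference of 0.086 without CS7KO 1 and 0.094 without CS7KO 3. Gss ranged from 14.3 to 18.2 CPM in CS7KO and from 11.01 to 19.5 CPM in CRE (0.16, adjusted p = 0.851). Without CRE 5 the Gsr difference was 0.13 and the Gss difference 0.085, and without CS7KO 3 they were 0.17 and 0.073.

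Within the CS7KO group the same libraries were high for all of these genes. CS7KO 1 and 3 both lay above CS7KO 2 and 4 for 7 of the 7 tested genes among the NRF2 target enzymes and the glutathione synthesis and reduction genes, and for 8 of the other 30. Over all 37 that made 15 (40.5%), against 27.5% of all genes tested. The pattern was noticed in the values and is given as a description with no test. For Hmox1 the lower of CS7KO 1 and 3 had 41.3 CPM and the higher of CS7KO 2 and 4 had 10.1 CPM. For Gclc these values were 29.7 and 16.2 CPM, for Gclm 49.3 and 29.3 CPM, and for Srxn1 37.97 and 25.2 CPM. The 8 others were Nfe2l2, Txnrd1, Txnip, Cat, Sod3, Gsta3, Mt1 and Mt2. No peroxiredoxin (0 of 5), glutathione peroxidase (0 of 3) or ferritin chain (0 of 2) showed it.

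Markers of some other cell types were high in the same libraries, and those of others were not. The 12 endothelial markers, 1 of them higher and 11 lower in CS7KO, summed to 3001, 1438, 2520 and 1236 CPM in CS7KO 1 to 4 against 2206 to 6466 CPM in CRE. The 12 fibroblast markers, 5 higher and 7 lower, summed to 5881, 2438, 4710 and 2395 CPM in CS7KO 1 to 4 against 1770 to 6717 CPM in CRE. The erythroid markers (8 of 10 tested, 5 higher and 3 lower) summed to 1753, 954, 2947 and 945 CPM in CS7KO 1 to 4 against 1026 to 1931 CPM in CRE. The sums of the other lists did not follow the pattern. In CS7KO 1 to 4 the macrophage and monocyte markers summed to 613, 680, 618 and 674 CPM, the smooth muscle and pericyte markers to 6087, 4378, 4183 and 4177 CPM, and the cardiomyocyte markers to 56986, 52960, 55243 and 63853 CPM. Des, with 4900, 3584, 3329 and 3374 CPM, made up most of the smooth muscle and pericyte sum, which therefore says little of the other markers. Of that list, Rgs5 (747, 369, 481 and 391 CPM), Pdgfrb and Tagln followed the pattern. Des, Acta2, Abcc9, Kcnj8, Myh11, Notch3 and Cnn1 did not. None of the listed markers found in the table for these 6 cell types was at 0 throughout, and their part in the antioxidant genes' pattern was not tested. Hepatocyte markers, from an organ rich in the same enzymes, summed to 2.61 to 6.84 CPM in CS7KO and 0.968 to 6.89 CPM in CRE, near 0.

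The sequence before the transcription start was searched for the core of the antioxidant response element, TGACNNNGC, on both strands, in RefSeq windows of build GRCm38.p6 that run from 250 bases before to 50 bases after each start. Windows were found for 32 of the 38 genes, some with several starts. The core was found in 8 of their 39 windows (20.5%), against 12.4% of all 32851 windows. The 8 windows were those of Nfe2l2, Srxn1, Gclm, Gsta3, Txnrd1, Prdx1, Sod1 and Mt2. Of the other genes high in both CS7KO 1 and 3, Nqo1, Gss, Txnip, Cat and Mt1 had windows without the core. For Hmox1, Gclc, Gsr and Sod3 no window was found. A match of these letters is a description of the sequence and not evidence of NRF2 binding. The upstream 250 bases of the NRF2 gene itself and of 2 of its classical targets that were high in CS7KO 1 and 3 are shown here, 5′ to 3′ on the gene's strand and with the core in capitals. The core begins 240 bases before the start of Nfe2l2 (chr2:75704664-75704913, minus strand), 134 before that of Gclm (chr3:122245307-122245556, plus strand) and 92 before that of Txnrd1 (chr10:82858956-82859205, plus strand). For Txnrd1 this is 1 of several starts in the table. In Gclm and Txnrd1 the core lies on the opposite strand, so its complement is read.
Nfe2l2: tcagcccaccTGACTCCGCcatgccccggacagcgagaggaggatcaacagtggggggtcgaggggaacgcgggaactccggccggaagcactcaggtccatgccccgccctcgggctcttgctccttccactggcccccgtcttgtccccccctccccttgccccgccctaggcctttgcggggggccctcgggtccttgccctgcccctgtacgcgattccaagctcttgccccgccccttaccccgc
Gclm: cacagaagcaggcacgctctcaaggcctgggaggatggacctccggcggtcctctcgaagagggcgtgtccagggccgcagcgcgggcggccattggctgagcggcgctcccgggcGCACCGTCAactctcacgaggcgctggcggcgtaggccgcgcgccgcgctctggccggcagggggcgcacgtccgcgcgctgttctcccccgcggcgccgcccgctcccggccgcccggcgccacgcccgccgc
Txnrd1: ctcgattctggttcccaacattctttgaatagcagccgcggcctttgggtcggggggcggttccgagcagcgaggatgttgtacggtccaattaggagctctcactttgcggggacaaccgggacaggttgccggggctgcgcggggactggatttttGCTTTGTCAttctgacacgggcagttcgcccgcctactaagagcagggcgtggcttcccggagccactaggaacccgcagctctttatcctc

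Glutathione S-transferases, which couple glutathione to electrophiles, gave 1 gene with a log2 difference above 0 and 5 below. Gsta1 had the smallest p of all 37 genes, at a low level, with 0.801, 1.75, 0.987 and 0.504 CPM in CS7KO against 8.39, 2.02, 6.37 and 0.968 CPM in CRE (log2 difference -2.16, SE 0.73, interval -3.80 to -0.52, edgeR adjusted p = 0.303). CRE 1 and CRE 3 were high, while CRE 5 lay within the CS7KO range. The reads of Gsta1 could not be separated with certainty from 4 near-identical copies, among them Gsta2 and Gm3776, whose summed counts, held in rows of their own, were equal to 40.5% of those of Gsta1. Gstm1, the most abundant transferase per length, had 129, 121, 171 and 135 CPM in CS7KO against 186, 133, 223 and 115 CPM in CRE, with full overlap (log2 difference -0.25, SE 0.29, adjusted p = 0.785). Gsta3 ranged from 9.68 to 42.0 CPM in CS7KO and from 6.46 to 33.7 CPM in CRE, and CS7KO 3 and CRE 3 were its high libraries. Gsta4, Gstm2 and Gstp1 had log2 differences of -0.01, -0.10 and -0.37, and Gstm2 and Gstp1 also share sequence with copies whose separate counts were equal to 6.26% and 25.2% of theirs. For Gstm1 that ratio was 55.2%, of which 51.1 points were Gstm2.

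Of the glutathione peroxidases 1 had a log2 difference above 0 and 2 below, none past the threshold. Gpx1, the cytosolic and mitochondrial selenoenzyme that reduces hydrogen peroxide, had 14.6, 18.8, 19.6 and 19.6 CPM in CS7KO against 115, 15.9, 26.7 and 45.7 CPM in CRE (log2 difference -1.43, SE 0.54, interval -2.63 to -0.22, adjusted p = 0.338). The CS7KO libraries were tight, CRE 2 lay among them, and CRE 1 was far above. Without CRE 1 the log2 difference was -0.47. Gpx4 had 499, 648, 552 and 728 CPM in CS7KO against 2373, 615, 576 and 467 CPM in CRE (log2 difference -0.54, SE 0.53, adjusted p = 0.723), and CRE 1 again stood alone. The transcribed pseudogene Gpx4-ps2 carried counts equal to 14.1% of those of Gpx4. Gpx3 ranged from 758 to 930 CPM in CS7KO and from 584 to 1151 CPM in CRE (log2 difference 0.12, adjusted p = 0.923).

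In the thioredoxin system the cytosolic and the mitochondrial reductase stood on opposite sides of 0. Txnrd1, the cytosolic reductase and an NRF2 target, had 91.5, 45.4, 61.5 and 51.2 CPM in CS7KO against 17.2, 53.4, 32.4 and 25.3 CPM in CRE (log2 difference 0.96, SE 0.37, interval 0.13 to 1.79, adjusted p = 0.344). Only CRE 2 reached into the CS7KO range. Txnrd2, the mitochondrial reductase, had 21.5, 25.5, 21.2 and 26.4 CPM in CS7KO against 75.0, 26.4, 34.7 and 23.2 CPM in CRE (log2 difference -0.70, SE 0.36, interval -1.51 to 0.11, adjusted p = 0.455). CRE 1 was the highest library, and the difference was -0.19 without it. Txnip had 878, 349, 559 and 308 CPM in CS7KO against 314, 380.3, 895 and 342 CPM in CRE, so that CS7KO 1 and CRE 3 were the high libraries (log2 difference 0.15, SE 0.49, adjusted p = 0.934). The cytosolic thioredoxin Txn1 ranged from 54.9 to 64.7 CPM in CS7KO and from 56.2 to 118 CPM in CRE, and the mitochondrial Txn2 from 111 to 164 CPM in CS7KO and from 68.0 to 254 CPM in CRE.

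Catalase was the most separated of the hydrogen peroxide and superoxide enzymes. Cat, the peroxisomal enzyme that splits hydrogen peroxide, had 319, 214, 293 and 246 CPM in CS7KO against 169, 209.6, 161 and 59.4 CPM in CRE (log2 difference 0.89, SE 0.37, interval 0.06 to 1.73, adjusted p = 0.368). The groups did not overlap, but CS7KO 2 and CRE 2 differed by little, and CRE 5 was the lowest. Without CRE 5 the difference was 0.63, and without CRE 3 and CRE 5 it was 0.45. Sod1, the cytosolic copper/zinc superoxide dismutase, had 119.5, 163, 149 and 179 CPM in CS7KO against 514, 133, 253 and 135 CPM in CRE (log2 difference -0.72, SE 0.45, adjusted p = 0.550). CRE 1 and CRE 3 were high, CRE 2 and CRE 5 lay inside the CS7KO range, and without CRE 1 the difference was -0.06. The mitochondrial Sod2 ranged from 247 to 356 CPM in CS7KO and from 81.3 to 422 CPM in CRE (0.30, adjusted p = 0.827), and the secreted Sod3 from 45.9 to 69.9 CPM in CS7KO and from 36.4 to 92.6 CPM in CRE (-0.02, adjusted p = 0.988).

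Peroxiredoxins reduce peroxides with electrons from thioredoxin, except Prdx6, which uses glutathione. Prdx3, the mitochondrial member, had 197, 184, 154 and 211 CPM in CS7KO against 138, 176, 90.4 and 27.0 CPM in CRE (log2 difference 0.95, SE 0.44, interval -0.02 to 1.93, adjusted p = 0.406). CRE 2 lay inside the CS7KO range, and CRE 5, with 69.8% of its counts from mitochondrially encoded genes, was far below. The difference was 0.58 without CRE 5, 0.22 without CRE 3 and CRE 5, and 1.00 when mitochondrially encoded genes were removed before scaling. Prdx5, the most abundant per length over all 8 libraries though below Prdx3 in CS7KO (106 against 126 CPM per kilobase), had 189, 245, 199 and 275 CPM in CS7KO against 977, 261, 287 and 93.8 CPM in CRE (log2 difference -0.60, SE 0.58, adjusted p = 0.723). Here the CRE libraries spanned both sides of the CS7KO group, with CRE 1 above and CRE 5 below it. The same order held for Prdx1, Prdx2 and Prdx6, whose log2 differences were -0.07, -0.07 and 0.15, and CRE 1 was the highest library for 4 of the 5 peroxiredoxins.

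Neither of the 2 ferritin chains passed the test. Ftl1, the light chain that helps to form the iron core, had 123, 151, 147 and 139 CPM in CS7KO against 596, 125, 184 and 277 CPM in CRE (log2 difference -1.04, SE 0.45, interval -2.06 to -0.03, adjusted p = 0.387). CRE 2 lay inside the CS7KO range, and the difference was -0.33 without CRE 1. Fth1 had 1270.1, 1565, 1656 and 1843 CPM in CS7KO against 2504, 1180.0, 1269 and 1265 CPM in CRE (log2 difference 0.04, SE 0.40, adjusted p = 0.980). CRE 1 was the highest library and the other 3 CRE libraries were below every CS7KO library, though CRE 3 and CS7KO 1 were nearly equal. Whether the 2 differences differ from each other was not tested.

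Cyba, the membrane subunit that the NADPH oxidases of phagocytes and of other cells share, makes superoxide in complex with a catalytic NOX subunit. It had 18.5, 28.4, 23.6 and 26.8 CPM in CS7KO against 103, 27.4, 41.3 and 48.6 CPM in CRE (log2 difference -1.16, SE 0.40, interval -2.04 to -0.27, adjusted p = 0.307). CRE 2 reached into the CS7KO range and CRE 1 was the highest library, and without CRE 1 the difference was -0.55. The 12 macrophage and monocyte markers, 1 higher and 11 lower in CS7KO, summed to 613 to 680 CPM in CS7KO against 1995, 889, 500 and 515 CPM in CRE 1, 2, 3 and 5, and none was at 0 throughout. Their part in the Cyba difference was not tested.

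**Figure D4:**
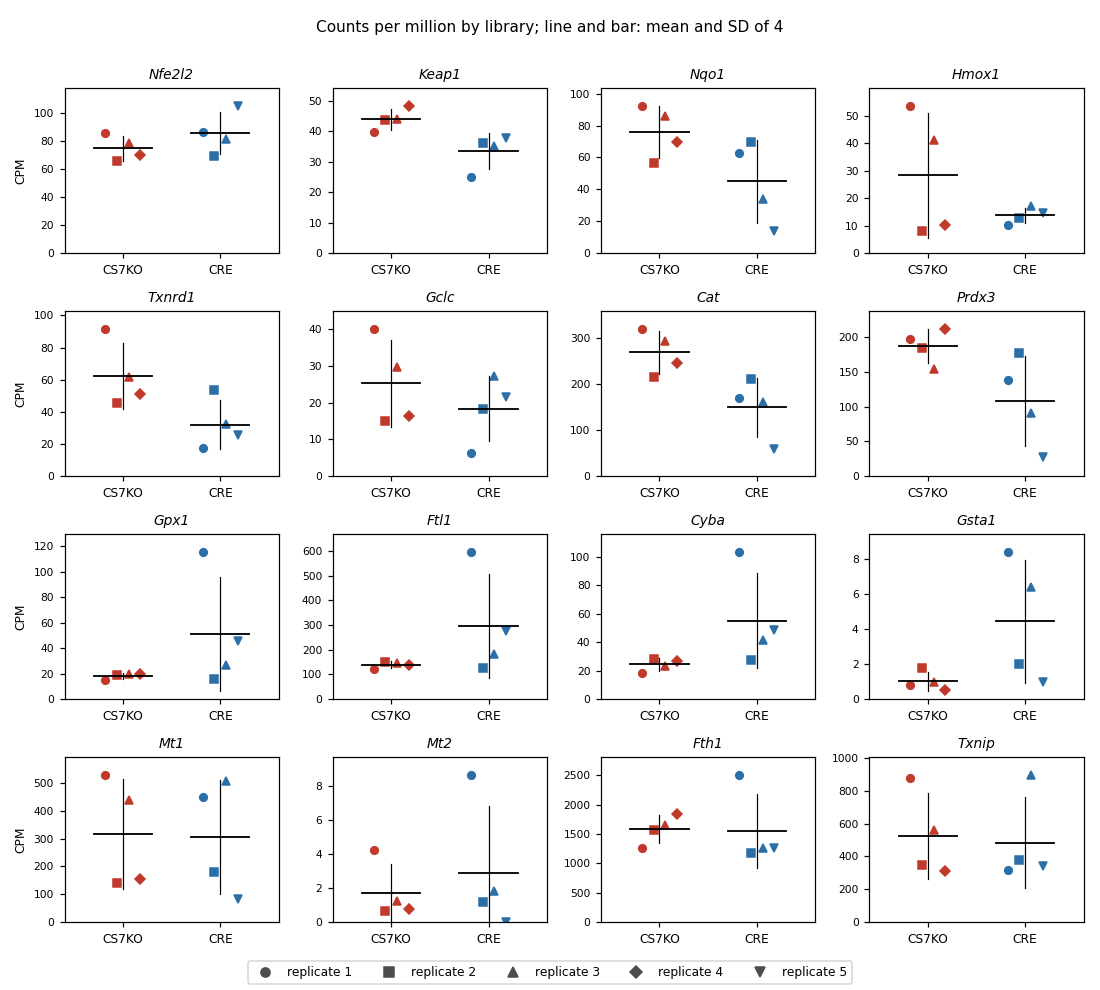
CPM per library for 16 of the antioxidant genes (points), with the group mean (bar) and SD of 4 libraries (line, lower end stopped at 0), CS7KO left of CRE in each panel. The CRE points are more scattered than the CS7KO points for genes such as Gpx1 (115 CPM in CRE 1) and Nqo1 (13.5 CPM in CRE 5), while the Hmox1 points are more scattered in CS7KO (8.07 to 53.5 CPM) than in CRE (10.2 to 17.1 CPM).

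Of the metallothioneins, Mt1 had many counts and Mt2 few. Whether the low counts of Mt2 reflect its level in the heart or the way reads were counted was not tested. Mt1 (ENSMUSG00000031765) had 528, 142, 438 and 156 CPM in CS7KO 1 to 4 against 451, 181, 507 and 84.7 CPM in CRE 1, 2, 3 and 5 (log2 difference 0.05, SE 0.63, interval -1.36 to 1.45, edgeR adjusted p = 0.987). The group means were 316 ± 197 CPM in CS7KO and 306 ± 205 CPM in CRE (SD, n = 4 each). Each group held 2 high libraries (CS7KO 1 and 3, CRE 1 and 3) and 2 low ones, so the spread within a genotype far exceeded the difference between them. Mt2 (ENSMUSG00000031762) had 4.26, 0.641, 1.24 and 0.783 CPM in CS7KO against 8.66, 1.17, 1.84 and 0 CPM in CRE, where CRE 5 had 0 counts, which allows up to 0.363 CPM (log2 difference -0.49, SE 1.03, adjusted p = 0.889). The groups overlapped, and CS7KO 1 and CRE 1 were the high libraries.

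Mt1 made up nearly all metallothionein counts in every library. Its share of the Mt1 and Mt2 counts was 99.2%, 99.5%, 99.7% and 99.5% in CS7KO and 98.1%, 99.4%, 99.6% and 100% in CRE, with means of 99.5% ± 0.215 in CS7KO and 99.3% ± 0.818 in CRE (SD, n = 4 each). The difference of 0.214 percentage points was smaller than the spread (two-sided exact permutation test over 70 assignments, p = 0.8, smallest possible p 0.0286). The Mt2 share was highest in CS7KO 1 within CS7KO, at 0.799% (95% exact Clopper-Pearson interval 0.651 to 0.970), and in CRE 1 within CRE, at 1.88% (1.63 to 2.16). In CRE 5 it was 0 of 700 counts, which allows up to 0.429%. Intervals and floors cover counting error only. Per kilobase of deposited length, Mt1 stood at 250 CPM and Mt2 at 3.95 CPM. No copy at 90% identity over 100 coding bases was found for either.

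The Mt1 and Mt2 promoters lie close together on chromosome 8 and were searched for the core of the metal response element, TGCACNC or TGCGCNC, on both strands, because it is the site that MTF1 reads. In RefSeq windows of GRCm38.p6, 9 of the 39 windows of these genes (23.1%) held the core, against 25.7% of all windows. The 250 bases before each start are shown 5′ to 3′ with every core in capitals. Mt2 (chr8:94172368-94172617, plus strand) has 3 cores, at 223, 128 and 50 bases before the start, and also the antioxidant core tgactcagc 79 bases before it. Mt1 (chr8:94178839-94179088, plus strand) has 1, at 23 bases before the start. With the 50 bases after the start, Mt2 has 4 cores and Mt1 has 3. Nothing about MTF1 follows from these letters.
Mt1: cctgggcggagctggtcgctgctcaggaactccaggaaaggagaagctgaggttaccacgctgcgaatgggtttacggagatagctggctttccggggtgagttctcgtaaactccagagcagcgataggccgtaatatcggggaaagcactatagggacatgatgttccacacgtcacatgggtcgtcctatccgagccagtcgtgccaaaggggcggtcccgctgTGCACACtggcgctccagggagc
Mt2: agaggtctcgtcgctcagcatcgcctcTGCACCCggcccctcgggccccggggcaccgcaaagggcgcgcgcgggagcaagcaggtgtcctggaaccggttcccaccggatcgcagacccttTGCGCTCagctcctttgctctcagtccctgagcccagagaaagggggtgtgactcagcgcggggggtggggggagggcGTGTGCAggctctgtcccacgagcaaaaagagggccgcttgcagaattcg

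Genes that work around these members were counted in 6 further lists, and 0 genes of any list passed the test. Of 24 other NRF2 targets, 8 were higher and 16 lower (median log2 difference -0.14), and the haem pathway enzyme Blvrb had the smallest p (-1.17, SE 0.37, adjusted p = 0.295). Of 28 tested genes among 33 other glutathione genes, 15 were higher and 13 lower (median 0.01), led by the transferase Gstt2 (-1.62, SE 0.38, adjusted p = 0.274). Other thioredoxin, peroxiredoxin and repair genes gave 11 higher and 9 lower of 20 (median 0.14), led by the methionine sulfoxide reductase Msrb3 (1.35, SE 0.33, adjusted p = 0.274).

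Of 13 tested oxidant-producing enzymes, 4 were higher and 9 lower in CS7KO, with a median log2 difference of -0.68. Maoa, the mitochondrial monoamine oxidase that releases hydrogen peroxide, had the smallest p (-1.22, SE 0.35, adjusted p = 0.291). Of 16 tested iron handling and ferroptosis genes, 8 were higher and 8 lower (median 0.09), led by Fech, which inserts iron into haem (0.95, SE 0.30, adjusted p = 0.295). Of 12 tested metal-responsive genes, 8 were higher and 4 lower (median 0.14), led by the zinc importer Slc39a14 (0.83, SE 0.32, adjusted p = 0.338). These medians stand beside 0.03 for all genes tested. Of the genes named in these lists, each picked by its p, Msrb3 and Fech were higher in CS7KO without overlap, as were 6.24% of all genes. Blvrb and Maoa were lower without overlap, as were 4.11% of all genes.

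Genes with near-identical copies carry an added uncertainty, because the sources used here do not say how reads that match several genes were counted. Of the 38 genes, 15 had a copy at 90% identity over at least 100 coding bases, and for 6 the separate counts of the copies were equal to at least 5% of those of the member, among them Gstm1, Gsta1, Gstp1, Gpx4 and Gstm2. Summing only the pseudogenes that carry a member's name with that member left every direction as it was. This sum held no copy of Gstm1, Gsta1 or Gstp1. For Gstm2 it held only Gstm2-ps1, at 1.22% of its counts, so it cannot speak for these genes. Gapdh, a glycolytic gene with many near-identical pseudogenes and no member of the set, had 8.81, 9.78, 107 and 9.07 CPM in CS7KO against 725, 9.16, 230.2 and 11.6 CPM in CRE, so its level also differed widely between libraries. It was named after its values were seen, and its copies were not searched. Whether copies had a part in the spread of Gapdh or of any member was not tested.

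The difference of the genotype effect between hearts labelled female and male was tested for all 16002 genes, and edgeR called 0 (1133 at an unadjusted p under 0.05, 7.08%). DESeq2 called 44 genes (0.275%), 0 of them in this set, and limma-voom called 0. At an unadjusted p under 0.05 edgeR counted 4 of the 37, Gstm2, Nqo1, Txn2 and Prdx1, with log2 interactions of 1.36, 1.55, 1.43 and 1.45 and an adjusted p of 0.667 each. With 2 libraries in each cell and labels of sex that the sex-linked genes did not follow, these values describe the labelled groups only.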

How the data were processed

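Polyadenylated RNA from whole mouse hearts, extracted with Trizol per the labels, was sequenced. Raw counts per gene of 8 libraries, with no normalization, stand in the 1 table that the authors deposited, beside gene length and coordinates. Per the submitters' processing notes, the tools were HTSeq 0.6.1, TopHat2 2.0, CASAVA and Cufflinks 2.1.1, and the builds GRCm38.p6 and mm10, with no role given. The sources used here do not give whether counting used strand or how reads matching several genes were handled. The deposited coordinates equal those of GENCODE M21, on GRCm38, for 1472 of 52073 matched genes (2.83%), so their build is unsettled and they are not printed. Promoter coordinates are those of RefSeq on GRCm38.p6.

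Genes were kept by filterByExpr (minimum count 10, minimum total 15), scaled by TMM and tested with edgeR 4.0.16 in R 4.3.3 by a robust quasi-likelihood fit over all 8 libraries with genotype and labelled sex. Benjamini-Hochberg adjustment ran over all 16002 genes, with a threshold of 0.05. Log2 differences are CS7KO over CRE, and CPM uses TMM-scaled library sizes. At these depths 3 counts came to between 0.0643 and 0.363 CPM. No 2 libraries of the same group agreed within sampling noise (chi-square per degree of freedom at least 11.2). Pairs across the groups were not checked in this way. The Mt1 share used an exact permutation test.

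Genes with full values were the 12 members with the smallest p, Nfe2l2, Keap1, Mt1, Mt2 and the most abundant member per length of each role over all 8 libraries. Of each context list the gene with the smallest p is named. The members and lists were chosen with earlier results of these data known. Gapdh was named after its values were seen. Copies were sought among GENCODE M21 coding sequences with blastn 2.17.0. On counts simulated from the 16002 genes, the test recovered 40 of 100 genes with a 4-fold change and 0 of 100 with a 2-fold change, and 2 of 15802 unchanged genes were called.

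Alternatives were DESeq2 1.42.0, limma-voom (limma 3.58.1), RLE and upper-quartile factors, no filter, a strict filter (1 CPM in 4 libraries), no sex term, a replicate block, removal of mitochondrially encoded genes, summed copies, each library left out in turn, and CRE 1 and 5 or CRE 3 and 5 left out together.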

Additional observations from a re-analysis of the deposited data

Results flagged for a closer look

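Within the 4 libraries of each genotype, 6 of 76 gene and group combinations had a library far from the other 3 by Dixon's criterion, where chance alone flags about 1 in 20. In CS7KO these were Gsta3 in CS7KO 3, at 42.0 CPM, and Mt2 in CS7KO 1, at 4.26 CPM. In CRE they were Gpx4, Fth1 and Txn1 in CRE 1, at 2373, 2504 and 118 CPM, and Txnip in CRE 3, at 895 CPM. CRE 1 accounted for 3 of the 6.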

How the results depend on the processing

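No antioxidant gene was called under any of the 21 alternatives, and the smallest adjusted p was 0.0578 (Gpx1, no filter). Of 777 comparisons of a member with its fitted value, 691 kept the direction, and 16 of the 37 genes kept it throughout. The count of all genes called was 503 with DESeq2, 338 with no filter, 16 without CRE 1 and 5, 3 without CRE 3 and 5, 26 without the sex term and CRE 1 and 5 (a setting added after the data were seen), and 3 (without CS7KO 3) to 14 (without CRE 1) with single libraries left out, beside 6 with all. DESeq2 called 44 interaction genes. The members' median ran from -0.12 without CRE 5 to 0.33 without CRE 1, and was -0.43 without CRE 3 and 5. The Mt1 share difference ran from -0.17 (without CRE 1) to 0.45. With no filter the median of all genes was 0.57, so its directions stand relative to that shift.

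Numbers shared by the groups were not treated as pairs in the main fit. Deviations of same-numbered libraries correlated at 0.04, -0.09 and 0.35. The last, CS7KO 3 with CRE 3, was the highest of all pairs across the groups, where the others ran from -0.22 to 0.17. A fit with the replicate block (numbers 1 to 3) called 2 genes and 0 members, with a members' median of -0.15. Under the block the log2 differences of Txn2, Sod2, Prdx6, Fth1 and Mt1 reversed, to -0.14, -0.18, -0.18, -0.055 and -0.11.

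Other reversals follow. The cause was not tested. DESeq2 gave Gsta4 0.026 and Sod3 0.0025. Limma-voom gave Gsta4 0.25, Prdx1 0.056 and Prdx2 0.17. RLE factors gave Gsta4 0.023 and Sod3 0.0028. No filter gave Gsta4 0.14, Gstm2 0.028, Sod3 0.097, Prdx1 0.057 and Prdx2 0.067. Removing mitochondrially encoded genes gave Gsta4 0.057 and Sod3 0.029. Without CRE 1 and 5, Nfe2l2 was 0.047, Gsta4 0.098, Gstm2 0.22, Gpx4 0.066, Txn1 0.061, Txnip -0.18, Sod3 0.027, Prdx1 0.050, Prdx2 0.24 and Mt2 0.11. Dropping the sex term as well gave Nfe2l2 0.047, Gsta4 0.095, Gstm2 0.23, Gpx4 0.065, Txn1 0.054, Txnip -0.17, Prdx1 0.00076, Prdx2 0.23 and Mt2 0.30. Without CRE 3 and 5, Gss was -0.12, Gsr -0.099, Gsta3 -0.052, Gpx3 -0.048, Txn2 -0.59, Sod2 -0.38, Prdx6 -0.47 and Fth1 -0.43.

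With single libraries left out, the ranges that crossed 0 were -0.44 to 0.54 for Gsta4, -0.27 to 0.33 for Gstm2, -0.30 to 0.63 for Txnip, -0.33 to 0.29 for Prdx1, -0.44 to 0.54 for Prdx2, -0.43 to 0.72 for Mt1, -0.22 to 0.18 for Sod3, -0.46 to 0.52 for Gsta3, -0.067 to 0.58 for Txn2, -0.070 to 0.41 for Prdx6, -0.068 to 0.42 for Fth1, -0.61 to 0.062 for Gstp1, -0.79 to 0.18 for Gpx4, -0.42 to 0.029 for Txn1, -1.02 to 0.13 for Prdx5, -0.95 to 0.48 for Mt2, -0.018 to 0.41 for Gpx3 and -0.037 to 0.57 for Sod2. Depth limits Gsta1, Mt2 and Slc7a11 most.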

Other observations

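The marker lists of the heart's own cell types held 0 genes that passed the adjusted p of 0.05 by edgeR. Of 12 cardiomyocyte markers, 9 were higher and 3 lower in CS7KO (median log2 difference 0.75), and Myh7, the foetal myosin heavy chain, had 4388, 1845, 2794 and 1945 CPM in CS7KO against 243, 1587, 612 and 205 CPM in CRE, with no overlap (log2 difference 2.15). Endothelial markers had a median of -1.09, fibroblast markers -0.26 and macrophage markers -0.35. Of 10 smooth muscle and pericyte markers, 2 were higher and 8 lower (median -0.27). Alas2, the erythroid enzyme that opens haem synthesis, had 53.0, 15.5, 62.8 and 18.4 CPM in CS7KO against 13.7, 19.5, 19.7 and 18.6 CPM in CRE, so CS7KO 1 and 3 stood apart as they did for Hmox1 (log2 difference 1.06).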
